A study of Mus musculus with 13 samples.

Results

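A group of 8 homeobox genes of the oral epithelium and head mesenchyme, Dlx1, Dlx2, Dlx5, Dlx6, Msx1, Msx2, Pitx1 and Barx1, were followed through development of the mouse submandibular salivary gland. They were chosen by symbol as 8 of the 23364 genes listed for every sample, and all 8 were found. RNA came from whole submandibular glands of C57BL/6 mice, with no transgene or treatment in any group. There were 3 samples of E14.5 glands, and E16.5, E18.5, P5 (postnatal day 5), 4wk and 12wk had 2 samples each, which makes 13 samples and 6 time points. E14.5, E16.5 and E18.5 together formed the embryo stage (n = 7), P5 the neonatal stage (n = 2), and 4wk and 12wk the adult stage (n = 4). Each E14.5 sample pooled the glands of 3 animals and each E16.5 or E18.5 sample the glands of 2, which limits what the spread between them can say about single animals. The 4wk and 12wk mice were male and the sex of the younger animals was not determined, so age and sex cannot be told apart between these groups.

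All 8 genes encode transcription factors that bind DNA through a homeodomain. Dlx genes lie in the genome as pairs that point towards each other and share enhancers, and in the pharyngeal arches they give jaw mesenchyme its dorsal or ventral identity. Msx1 and Msx2 act downstream of BMP signals in oral mesenchyme and in the teeth and skull. Pitx1 marks oral ectoderm and the lower jaw and is also known for its role in hindlimb identity, and Barx1 marks the mesenchyme of the molar field and of the stomach. In the salivary gland, buds of oral epithelium branch into a mesenchyme that descends from cranial neural crest.

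Expression is given as FPKM, the reads on a gene per kilobase of its length, scaled to the depth of the sample, so levels of different genes can be compared per length. Whole reads were recovered from these values, and depth on genes was between 5817293 reads in a 4wk sample and 48314162 reads at P5. A limit applies to all comparisons with adult glands. The 10 most abundant genes held 5.93 to 9.27% of the summed FPKM at E16.5, 29.2 to 31.1% at P5 and 48.1 to 61.1% in adult samples, and the FPKM of other genes is lowered by that share. On the scale used for testing, log2(FPKM + 1), the median log2 fold change of all 14650 tested genes was -0.75 in adult against embryo. What part of this shift comes from the abundant genes was not tested. Because of the shift, log2 fold changes in adult against embryo are also given after the samples were rescaled by the median of ratios. Ratios of pooled reads are given at the deposited depth only and include the shift. In cartilage and bone markers 1 library stood apart, and other replicate pairs differed as well. E14.5 replicate 1 held 277 summed FPKM of 10 cartilage and bone markers, against 69.9 and 73.5 in the other E14.5 samples. Calls on the main scale that were lost without it are named. Ratios of pooled reads, rescaled fits and fits on recovered reads include it throughout.

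The genes form 2 linked pairs and 4 single loci. On mm9 (NCBIM37, GENCODE annotation), Dlx1 lies at chr2:71366170-71372038 on the plus strand and Dlx2 at chr2:71381466-71384811 on the minus strand, with 9427 bases between them. Dlx6 lies at chr6:6813334-6818568 on the plus strand and Dlx5 at chr6:6827805-6832085 on the minus strand, with 9236 bases between them. Msx1 is at chr5:38211724-38215822 on the minus strand. Chromosome 13 carries Msx2 at chr13:53562250-53568443 and Pitx1 at chr13:55926415-55937553, both on the minus strand, and Barx1 at chr13:48758367-48761876 on the plus strand. Values are counts over the exons of each gene. Near the starts, RefSeq promoters (GRCm38.p6) were given for 5 of the 8 genes, and not for Dlx5, Dlx6 or Pitx1. Shown here, 5′ to 3′ on the strand of the gene, are the 250 bases before the starts of the linked genes Dlx1 and Dlx2, whose time courses are set side by side, and of Barx1, which had the largest log2(FPKM + 1) change of the members in adult against embryo. Capitals mark GGGCGG or CCAAT, searched on both strands. The windows are chr2:71529195-71529444 for Dlx1, chr2:71546755-71547004 for Dlx2 and chr13:48662786-48663035 for Barx1.
Dlx1: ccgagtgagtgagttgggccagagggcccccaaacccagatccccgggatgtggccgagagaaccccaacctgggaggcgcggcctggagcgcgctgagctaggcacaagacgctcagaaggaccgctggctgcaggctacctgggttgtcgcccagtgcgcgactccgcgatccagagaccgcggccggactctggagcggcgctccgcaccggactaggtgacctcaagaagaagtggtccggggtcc
Dlx2: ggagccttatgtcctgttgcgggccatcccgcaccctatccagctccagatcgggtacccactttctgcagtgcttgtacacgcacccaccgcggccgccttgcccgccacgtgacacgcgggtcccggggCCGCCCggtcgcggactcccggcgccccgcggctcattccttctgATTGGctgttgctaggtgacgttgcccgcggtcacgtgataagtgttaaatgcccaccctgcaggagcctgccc
Barx1: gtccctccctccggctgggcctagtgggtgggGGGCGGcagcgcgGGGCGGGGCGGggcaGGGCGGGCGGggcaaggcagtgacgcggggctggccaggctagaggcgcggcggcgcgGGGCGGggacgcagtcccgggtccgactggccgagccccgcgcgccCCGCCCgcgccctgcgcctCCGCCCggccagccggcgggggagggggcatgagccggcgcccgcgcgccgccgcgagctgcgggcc

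These windows were rich in CpG. Barx1 had 40 CpG dinucleotides in its window, Dlx2 24, Dlx1 22, Msx1 20 and Msx2 16, against a median of 6 and a 90th percentile of 25 over 32851 RefSeq promoters of the same length. The GC box letters GGGCGG, found in 32.7% of all those promoters, matched 8 times in Barx1, where several matches overlap, once each in Dlx2, Msx1 and Msx2 and not in Dlx1. CCAAT, present in 33.8% of promoters, matched in Dlx2, Msx1 and Msx2. The letters TAATTA, a homeodomain core found in 4.84% of promoters, matched once, in Msx2 at position -187 counted from the start. Neither TATAAA (12.4% of promoters) nor TAATTG (7.17%) matched in any of the 5 windows.

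Dlx1 and Dlx2, a pair that acts in the pharyngeal arches and is also used by forebrain interneurons, were highest at E14.5 and near 0 in adult glands. The E14.5 samples held 2.84, 2.03 and 2.54 FPKM of Dlx1 and the E16.5 samples 1.35 and 1.27 FPKM. E18.5 samples held 0.622 and 0.421 FPKM, P5 samples 0.209 and 0.205 FPKM, 4wk samples 0.124 and 0.136 FPKM and 12wk samples 0 and 0.0253 FPKM. In deposited FPKM, values of neighbouring time points of Dlx1 did not overlap, and its order ran with age from E14.5 down to 12wk. The adult values rest on 0 to 3 reads per library. After rescaling by the median of ratios, 4wk (0.173 and 0.220 FPKM) overlapped P5 (0.191 and 0.199 FPKM). For Dlx2 the E14.5 samples held 3.25, 1.61 and 1.63 FPKM and the E16.5 samples 1.32 and 1.43 FPKM. E18.5 samples held 0.303 and 0.249 FPKM, P5 samples 0.226 and 0.269 FPKM, 4wk samples 0 and 0.0508 FPKM and 12wk samples 0.0371 and 0.0142 FPKM. In Dlx2, E18.5 overlapped P5 and 4wk overlapped 12wk, and all samples up to E16.5 lay above all later ones. Pooled over the 4 adult libraries, Dlx1 had 7 reads and Dlx2 4 reads, against 820 and 647 reads in the 7 embryonic libraries. The ratio of pooled FPKM, embryo to adult, was 38.5 for Dlx1 (95% counting interval 18.6 to 96.1) and 53.2 for Dlx2 (20.7 to 196), intervals that cover counting error only. Within a sample, the level of Dlx1 divided by that of Dlx2 lay between 0.763 and 2.05 in all 9 samples up to P5.

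**Figure D1:**
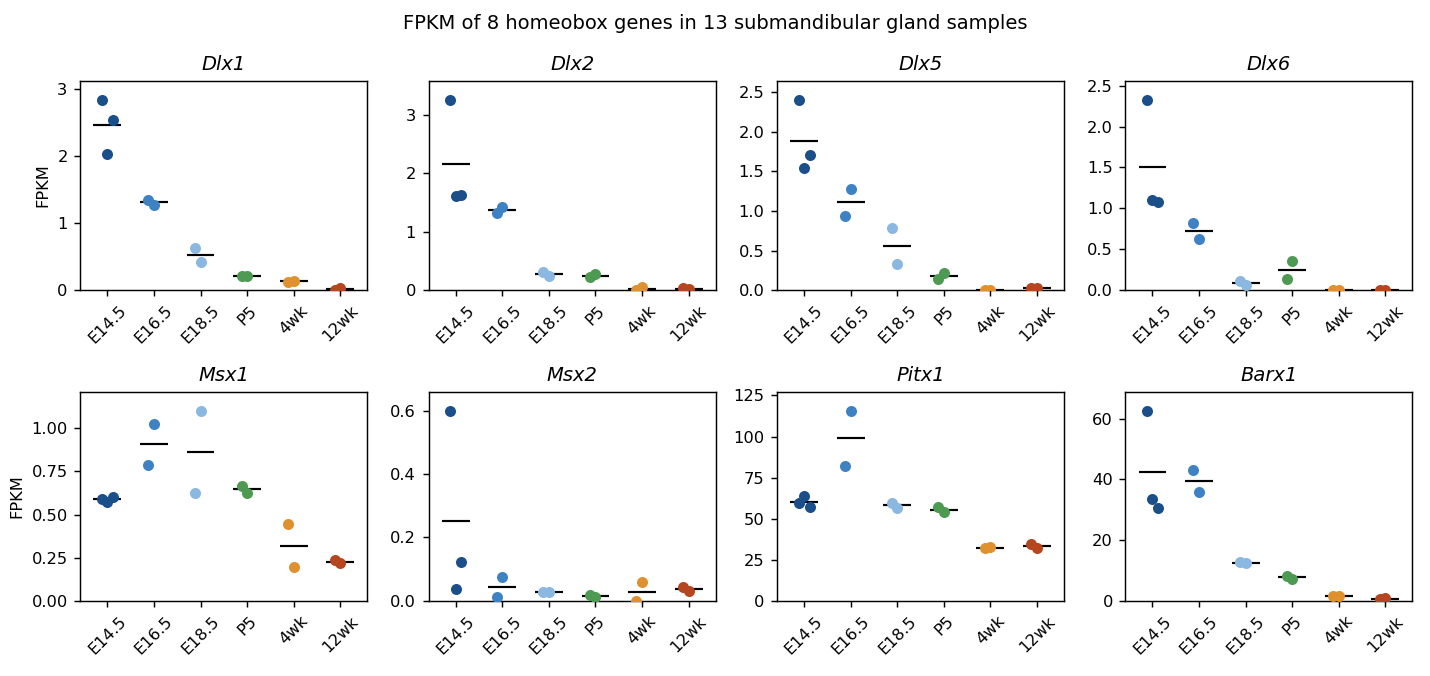
FPKM of the 8 genes (vertical axes, from 0, scaled per gene) in each of 13 samples, by time point. Points are samples and black lines the mean of the time point. Dlx1, Dlx2, Dlx5 and Dlx6 are highest at E14.5 and close to 0 in adult samples, Barx1 is high at E14.5 and E16.5 and at 0.606 to 1.77 FPKM in adult samples, where Pitx1 is still between 32.3 and 34.5 FPKM, and in Msx2 a single E14.5 sample at 0.600 FPKM stands apart.

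Dlx5 and Dlx6, the pair that specifies the lower jaw downstream of endothelin signalling, were also highest at E14.5 and at or near 0 reads in the adult. The E14.5 samples held 2.40, 1.54 and 1.70 FPKM of Dlx5, the E16.5 samples 0.942 and 1.28 FPKM and the E18.5 samples 0.779 and 0.329 FPKM. P5 samples held 0.147 and 0.219 FPKM, both 4wk samples were at 0, and the 12wk samples held 0.0326 and 0.0250 FPKM, 1 read each. Dlx5 values of neighbouring time points up to P5 did not overlap, while 0 reads at 4wk allow up to 0.367 and 0.268 FPKM, which covers P5 and 12wk. For Dlx6 the E14.5 samples held 2.32, 1.1 and 1.08 FPKM, and the E16.5 samples 0.824 and 0.626 FPKM. E18.5 samples held 0.108 and 0.0576 FPKM and P5 samples 0.135 and 0.354 FPKM, so that P5 lay above E18.5. All 4 adult samples were at 0 reads for Dlx6. At these depths 0 reads allow up to 0.482 and 0.352 FPKM in the 4wk samples and up to 0.128 and 0.0985 FPKM in the 12wk samples, so a level like that of P5 was not detectable in a single 4wk library. Pooled over the 4 adult libraries the limit was 0.0437 FPKM (3 reads over the group), and Dlx6 was at least 18.6-fold higher in pooled embryonic libraries, with 170 reads. For Dlx5 the pooled ratio was 54.7 (15 to 454), from 333 reads against 2. Dlx5 divided by Dlx6 was between 1.03 and 2.04 at E14.5 and E16.5, 7.24 and 5.71 at E18.5, and 1.09 and 0.619 at P5. Both E18.5 samples held only 2 reads of Dlx6.

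Msx1 and Msx2, targets of BMP signals, were low throughout and had a different course. The E14.5 samples held 0.591, 0.572 and 0.601 FPKM of Msx1, the E16.5 samples 0.786 and 1.03 FPKM and the E18.5 samples 0.627 and 1.1 FPKM. P5 samples held 0.665 and 0.626 FPKM, 4wk samples 0.445 and 0.195 FPKM and 12wk samples 0.237 and 0.219 FPKM. Means were highest at E16.5, but E16.5 overlapped E18.5 and E18.5 overlapped P5. In deposited FPKM, adult samples lay below all others. Msx1 was the only member whose E14.5 samples all lay below both E16.5 and P5 samples. Pooled at the deposited depth, 300 embryonic reads against 30 adult reads gave a ratio of 3.29 (2.26 to 4.96). In the rescaled limma fit given below, Msx1 had an adjusted p above 0.1. Msx2 never reached 1 FPKM, the minimum for testing. It stood at 0.600, 0.0365 and 0.121 FPKM at E14.5, which are 25, 2 and 7 reads, and every other sample held 0 to 6 reads and at most 0.0744 FPKM. In the order of means, E14.5, E16.5, 12wk, 4wk, E18.5 and P5, all neighbours but the last pair overlapped, and 25 of the 44 embryonic reads came from E14.5 replicate 1.

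Pitx1, the homeobox gene of oral ectoderm, was the member with the highest level in 12 of the 13 samples and was retained in the adult. The E14.5 samples held 59.8, 64.1 and 57.4 FPKM, the E16.5 samples 82.3 and 115.7 FPKM and the E18.5 samples 59.6 and 56.6 FPKM. P5 samples held 57.0 and 53.9 FPKM, 4wk samples 32.3 and 32.6 FPKM and 12wk samples 34.5 and 32.4 FPKM. E16.5 samples lay above all others, and E14.5, E18.5 and P5 overlapped in part. In deposited FPKM, all 4 adult samples lay close together and below the rest. In rank, Pitx1 was between place 567 and place 1297 of all 23364 genes in embryonic samples and between 1347 and 1545 in adult samples, so that at least 93.4% of genes lay below it in every sample.

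Barx1, a homeobox gene of dental and stomach mesenchyme, was near the level of Pitx1 at E14.5 in 1 sample and lower at each later stage. Its E14.5 samples held 62.6, 33.6 and 30.6 FPKM, the E16.5 samples 43.0 and 35.8 FPKM and the E18.5 samples 12.8 and 12.3 FPKM. P5 samples held 8.24 and 7.27 FPKM, 4wk samples 1.77 and 1.75 FPKM and 12wk samples 0.606 and 0.879 FPKM. Only E14.5 and E16.5 overlapped, and without E14.5 replicate 1 both E14.5 samples lay below both E16.5 samples, and from E16.5 on every time point lay below the one before it. The adult values rest on 14 to 34 reads in each library. Pooled over stages, 8705 embryonic reads against 85 adult reads gave a ratio of 33.7 (27.2 to 42.2), and P5 to adult a ratio of 7.98 (6.39 to 10.1). Its rank was between place 1145 and place 5601 of all genes in embryonic samples and between 9763 and 12121 in adult samples.

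Between stages, members were compared with limma on log2(FPKM + 1) over all 13 samples, with Benjamini-Hochberg adjustment over 14650 genes and a gene was called where the log2 fold change reached 1 in either direction with an adjusted p below 0.1. On this scale the change of a gene near 1 FPKM is understated. In adult against embryo, Barx1 fell by 3.76 (SE 0.38, adjusted p = 9.46e-07 by limma), Dlx1 by 1.19 (SE 0.25, adjusted p = 0.000597), Dlx2 by 1.12 (SE 0.27, adjusted p = 0.00208), Dlx5 by 1.11 (SE 0.21, adjusted p = 0.000246) and Pitx1 by 1.03 (SE 0.18, adjusted p = 0.000108). Dlx6, at -0.81 (SE 0.26, adjusted p = 0.011), and Msx1, at -0.46 (SE 0.13, adjusted p = 0.00436), did not reach the fold threshold. These 5 calls of 7 tested members stand beside 38.0% of all tested genes called lower. Dlx1, Dlx2, Dlx5, Dlx6 and Msx1 passed the filter only through embryonic samples, so the count describes the members and supports nothing. In deposited FPKM, adult and embryonic samples overlapped for Msx2 alone of the members. The share of all genes without overlap was not counted, so this does not set the members apart from other genes. After rescaling, Pitx1 (45.2 FPKM in a 4wk sample, 43.9 in an E14.5 sample) and Msx1 (0.623 in a 4wk sample, 0.440 in an E14.5 sample) overlapped too. For Dlx5 and Dlx6, 0 reads at 4wk allow levels held by E18.5 samples. Dlx2 missed the fold threshold without E14.5 replicate 1 (-0.96, adjusted p = 0.00179), and Pitx1 missed it without E16.5 replicate 1 (-0.99) or E16.5 replicate 2 (-0.91).

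Pitx1 and Msx1 were close to other genes once scaling was taken into account. After rescaling by the median of ratios, Pitx1 was at -0.10 (SE 0.16, adjusted p = 0.59 by limma) and Msx1 at -0.18 (SE 0.12, adjusted p = 0.213), and neither was called. Dlx1 (-0.94), Dlx2 (-0.91), Dlx5 (-0.92) and Dlx6 (-0.67) kept adjusted p-values between 0.000561 and 0.0184 but were under the fold threshold, and Barx1 was called at -3.08 (SE 0.36, adjusted p = 8.41e-06). Against the median of all genes, Pitx1 on the deposited scale was lower by only 0.28 on the log2 scale. A fit of limma with voom weights on the recovered reads, chosen after the data were seen, adds a constant to the reads in place of 1 FPKM and so compresses low genes less. With rescaled depth in that fit, adult against embryo was -4.08 for Dlx1 (SE 1.02, adjusted p = 0.00381), -3.86 for Dlx2 (SE 1.09, adjusted p = 0.00825), -3.61 for Dlx5 (SE 0.76, adjusted p = 0.00117), -3.08 for Dlx6 (SE 1.21, adjusted p = 0.042) and -3.87 for Barx1 (SE 0.96, adjusted p = 0.00358). All 5 were called there, beside 21.5% of all tested genes called lower in that fit, while Msx1 (-0.55, SE 0.40, adjusted p = 0.252) and Pitx1 (-0.09, SE 0.17, adjusted p = 0.666) were not. That fit kept the same filter, which Dlx1, Dlx2, Dlx5 and Dlx6 passed only through embryonic samples, so this count supports nothing either. Fitted values of genes at 0 reads depend on the constant that voom adds and are no bound.

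**Figure D2:**
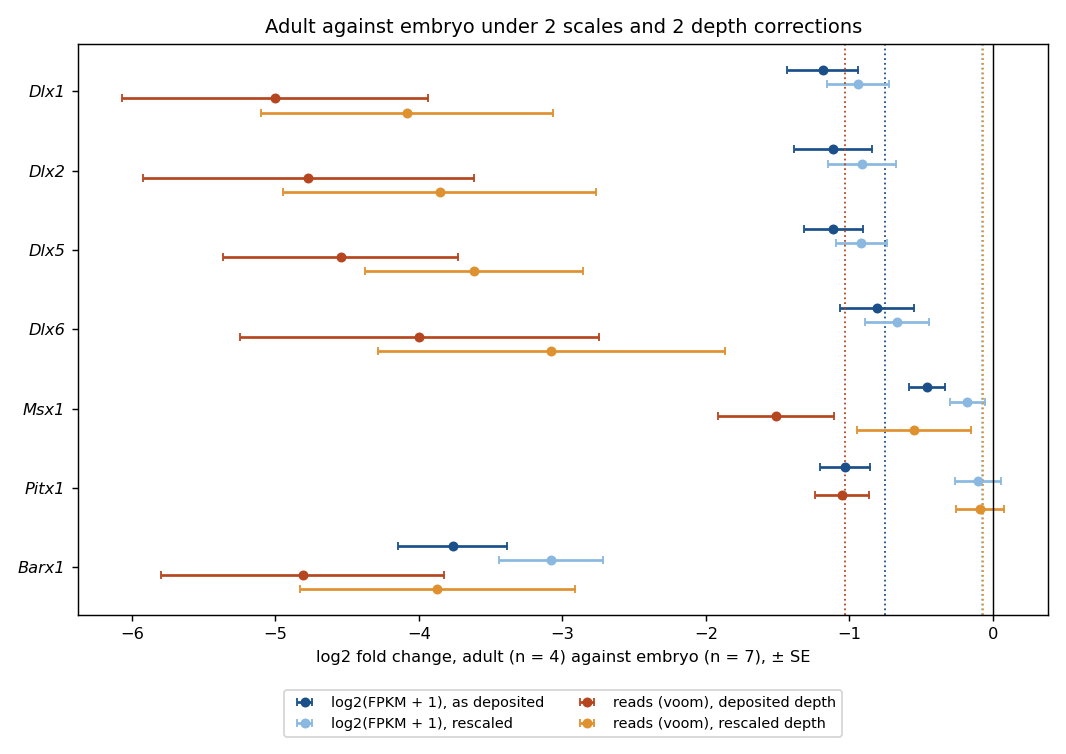
Log2 fold change of adult (n = 4) against embryo (n = 7) with its SE (horizontal axis) for the 7 tested members, under log2(FPKM + 1) and under voom on recovered reads, each with deposited and with rescaled depth. Dotted lines are the median of all tested genes in the same fit. Dlx1, Dlx2, Dlx5, Dlx6 and Barx1 lie left of 0 in all 4 fits, and Pitx1 lies at -0.10 and -0.09 with rescaled depth.

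The neonatal gland lay between these stages. In P5 against embryo, Barx1 fell by 1.77 (SE 0.48, adjusted p = 0.0178 by limma) and Dlx1 by 1.01 (SE 0.32, adjusted p = 0.0309), 2 of 7 tested members beside 8.14% of all tested genes called lower. Dlx1 had passed the filter only through embryonic samples, so this count supports nothing. Dlx5 was at -0.89 (adjusted p = 0.0255), Dlx2 at -0.83 (adjusted p = 0.0889), Dlx6 at -0.50 (adjusted p = 0.261), Pitx1 at -0.30 (adjusted p = 0.32) and Msx1 at -0.09 (adjusted p = 0.706). The Dlx1 call was lost without any one of the E14.5 or P5 samples (log2 fold changes between -1.02 and -0.90, adjusted p up to 0.182), and after rescaling (-0.83). Without P5 replicate 1 or P5 replicate 2, Barx1 also lost its call (-1.85 with adjusted p = 0.126, and -1.69 with adjusted p = 0.151). From P5 to adult, Barx1 alone was called, at -2.0 (SE 0.52, adjusted p = 0.00802; -1.58 after rescaling), beside 20.8% of all tested genes called lower. Pitx1 was at -0.73 (adjusted p = 0.0251) and, once rescaled, at -0.07 (adjusted p = 0.861). With voom and rescaled depth the Barx1 call from P5 to adult was lost (-2.24, SE 1.04, adjusted p = 0.123).

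Between neighbouring time points, Barx1 fell by 1.57 in E18.5 against E16.5 (SE 0.27, adjusted p = 0.00584 by limma) as the only called member, beside 1.85% of all tested genes called lower, and it was called in each fit that left a sample out. Dlx2 (-0.90, adjusted p = 0.0277), Pitx1 (-0.74, adjusted p = 0.0118), Dlx6 (-0.67, adjusted p = 0.0812) and Dlx1 (-0.61, adjusted p = 0.0375) were under the fold threshold. On recovered reads with rescaled depth, Dlx1 (-1.23), Dlx2 (-2.15) and Dlx6 (-2.78) were called together with Barx1 (-1.49), where 2.81% of all tested genes were called lower. These Dlx genes had passed the filter only through E14.5 or E16.5 samples, so this count supports nothing. From P5 to 4wk, Barx1 was called at -1.66 (SE 0.27, adjusted p = 0.000435), where 22.1% of all tested genes were called lower, and Pitx1 was at -0.75 (adjusted p = 0.00136), or -0.10 (adjusted p = 0.592) after rescaling. On recovered reads with rescaled depth, Barx1 was at -1.42 (adjusted p = 0.231) for this step and was not called.

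Other steps held no call among the 7 tested members in limma. In E16.5 against E14.5 (0.983% of all tested genes called lower), 4 members (Dlx1, Dlx5, Dlx6 and Pitx1) had an unadjusted p under 0.05, as did 32.1% of all tested genes, and voom on the reads called 0. The count at unadjusted p under 0.05 was 2 without E14.5 replicate 1 or E16.5 replicate 1. Pitx1 was higher by 0.68 at E16.5 (SE 0.13, adjusted p = 0.00627), with both E16.5 samples above all 3 E14.5 samples, and the value was 0.68 after rescaling too. Dlx1 went the other way (-0.58, SE 0.14, adjusted p = 0.0192). In P5 against E18.5 (2.97%), 1 member, Barx1, had an unadjusted p under 0.05 (-0.63, SE 0.27, adjusted p = 0.128), as did 32.4% of all tested genes. For this step voom on the reads called 1 member, Dlx1, at the deposited depth and 0 at rescaled depth. The count at unadjusted p under 0.05 was 3 without E14.5 replicate 1, 2 without E18.5 replicate 2 or either 4wk replicate, and 0 without E18.5 replicate 1 or either P5 replicate. In 12wk against 4wk (2.48%), 1 member, Barx1, had an unadjusted p under 0.05 (-0.67, SE 0.27, adjusted p = 0.138), as did 26.2% of all tested genes, and voom on the reads called 1, Dlx1, at levels of 0 to 3 reads per library. Without 12wk replicate 1 or either 4wk replicate the count at unadjusted p under 0.05 was 0. No member was called higher at E14.5 than at each of the 5 later time points, by limma or by voom. That pattern was met by 100 genes, or 0.683% of those tested, and 3 members (Dlx1, Dlx5 and Dlx6) met it at unadjusted p under 0.05 with no fold threshold, as did 12.1% of all tested genes. Without E14.5 replicate 1 or E16.5 replicate 1 that was 1 member, and Dlx6 passed the filter only through E14.5 samples, so the count supports nothing.

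Relative to Pitx1, Barx1 was lower at each later time point within the same samples, a ratio that no scaling of whole samples can change. E14.5 samples had ratios of Barx1 to Pitx1 of 1.05, 0.525 and 0.534, E16.5 samples 0.523 and 0.309 and E18.5 samples 0.214 and 0.218. P5 samples had 0.145 and 0.135, 4wk samples 0.0547 and 0.0537 and 12wk samples 0.0176 and 0.0271. No 2 neighbouring time points overlapped. On the log2 scale the ratio was -1.26 ± 0.83 (SD, n = 7) in embryonic and -4.86 ± 0.80 (SD, n = 4) in adult samples, a difference of 3.60 with a two-sided exact permutation p of 0.00606, over 330 labellings. Without E14.5 replicate 1 the difference was 3.38 (two-sided exact permutation p = 0.00952, 210 labellings). All embryonic ratios lay above all adult ratios, so both p-values are the smallest that these labellings allow. This pair was chosen after the values were seen, so these p-values describe the separation and support nothing.

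**Figure D3:**
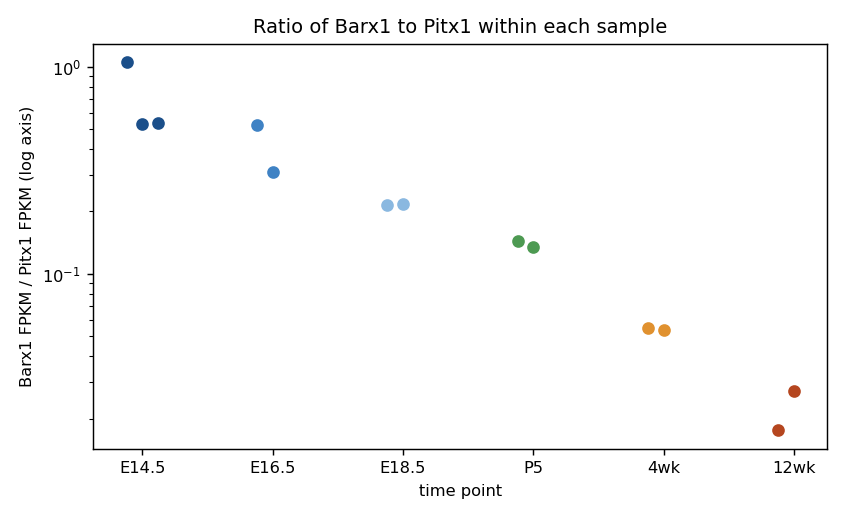
Barx1 FPKM divided by Pitx1 FPKM (vertical axis, log scale) in each of 13 samples by time point (horizontal axis). Points are samples; the ratio runs from 1.05 in an E14.5 sample to 0.0176 in a 12wk sample and neighbouring time points do not overlap.

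Markers of tissue types moved over the same time points, and in whole glands fewer cells of a type and less RNA per cell cannot be told apart. Summed FPKM of 10 mesenchyme markers was 3169 to 3395 at E14.5, 2629 to 2943 at E16.5, 2250 to 2406 at E18.5, 1871 to 2068 at P5, 507 to 589 at 4wk and 295 to 400 at 12wk. In adult against embryo, 8 of these 10 markers were called lower and 0 higher, with a median log2 fold change of -3.02, and 8 were called lower after rescaling. Epithelium markers summed to 452 to 733 FPKM at E14.5, 1319 to 1673 at E16.5, 1464 to 1556 at E18.5, 1329 to 1569 at P5 and 767 to 870 in adult samples, with 3 of 10 called lower, and 1 lower and 2 higher after rescaling. Skeletal muscle markers summed to 258 to 1543 FPKM at E14.5 and E16.5 and to 1.84 to 48.5 from E18.5 on, and 10 of 10 were called lower in adult against embryo on both scales. Neuron markers summed to 114 to 169 FPKM at E14.5 and 4.43 to 6.24 in adult samples, with 6 of 9 tested called lower, or 5 after rescaling. Of 8 tested cartilage and bone markers 3 were called lower and 1 higher, and 2 lower and 3 higher after rescaling. Secretory markers of the gland summed to 50.2 to 355 FPKM at E14.5 and to 77421 to 107785 FPKM in adult samples, with 7 of 10 called higher, or 8 after rescaling. This list was chosen with earlier results of these data known, so it is no independent check of the labelled tissue. The part of these markers in the levels of Dlx, Msx, Pitx1 and Barx1 was not tested.

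E14.5 replicate 1 carried more of several members as well as more of some cartilage genes. Its level over the mean of the other E14.5 samples was 7.61 for Msx2, 2.13 for Dlx6, 2.00 for Dlx2, 1.95 for Barx1, 1.48 for Dlx5 and 1.24 for Dlx1, against 1.01 for Msx1 and 0.985 for Pitx1. Of the 10 cartilage and bone markers 6 lay above both other E14.5 samples, among them the bone genes Sp7 and Phex. The other 4, the bone genes Runx2, Ibsp, Bglap and Alpl, lay below both. Col2a1, the main collagen of cartilage, was at 142 FPKM there and at 2.87 and 4.04 FPKM in the other E14.5 samples, and the cartilage matrix genes Matn1 and Acan were at 23.8 and 12.4 FPKM and elsewhere at or below 0.313 FPKM. Skeletal muscle markers summed to 840 FPKM against 339 and 258, epithelium markers to 452 against 733 and 722 and secretory markers to 50.2 against 355 and 317. Their part in the levels of Msx2, Dlx2, Dlx6 and Barx1 was not tested.

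**Figure D4:**
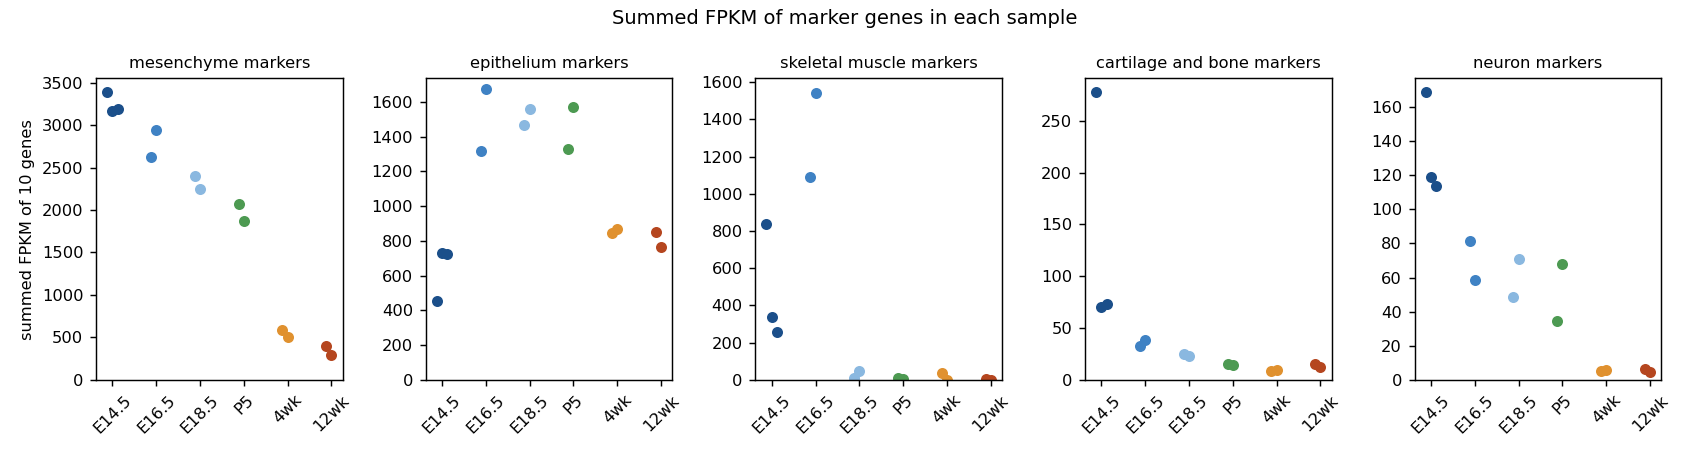
Summed FPKM of 10 marker genes each (vertical axes, from 0) for mesenchyme, epithelium, skeletal muscle, cartilage and bone, and neurons in each of 13 samples by time point (horizontal axes). Mesenchyme and neuron sums are lowest in adult samples, muscle is high at E14.5 and E16.5, and 1 E14.5 sample stands apart in cartilage and bone at 277 FPKM.

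Other homeobox genes of the head showed a mixed course. Of 24 listed genes 20 were tested, and in adult against embryo 9 were called lower and 0 higher, with a median log2 fold change of -0.90 beside -0.75 over all tested genes. After rescaling 6 were called lower, with a median of -0.41. The largest changes were in Prrx1, Alx4 and Prrx2, paired-type homeobox genes of craniofacial mesenchyme. Prrx1 was at 30.5 ± 11.9 FPKM (SD, n = 7) in the embryo, 8.0 ± 0.70 (n = 2) at P5 and 1.02 ± 0.48 (n = 4) in the adult and fell by 3.90 (SE 0.26, adjusted p = 2.69e-08 by limma; -3.25 after rescaling). Alx4 fell by 2.89 (SE 0.35, adjusted p = 5.59e-06) and Prrx2 by 2.35 (SE 0.28, adjusted p = 3.92e-06), and both were called after rescaling (-2.28 and -1.82). Barx2, the relative of Barx1, was the highest of the list at E14.5 with 67.4 ± 15.2 FPKM (SD, n = 3). Unlike Barx1 it was still at 27.8 ± 4.24 FPKM (SD, n = 4) in the adult, with a log2 fold change of -1.37 (SE 0.17, adjusted p = 8.35e-06) that was -0.44 and no longer called after rescaling. Msx3, the third Msx gene, was the lowest of the list at 0.0227 FPKM at E14.5 and was not tested.

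Genes for signals and cofactors around these factors included ligands, receptors and partner proteins. Of 25 listed 21 were tested, and in adult against embryo 11 were called lower and 1 higher, with a median of -1.04 beside -0.75 over all tested genes, or 7 lower and 1 higher with a median of -0.46 after rescaling. Bmp7, a BMP ligand of branching organs, fell by 3.12 (SE 0.31, adjusted p = 7.7e-07 by limma), from 28 FPKM in the embryo to 2.08 FPKM in the adult. Twist1, a neural crest and mesenchyme factor, fell by 3.10 (SE 0.35, adjusted p = 2.53e-06) and the FGF receptor gene Fgfr1 by 2.75 (SE 0.24, adjusted p = 3.1e-07). After rescaling Bmp7 (-2.36), Twist1 (-2.46) and Fgfr1 (-1.90) were called too. Smo, the transducer of hedgehog signals, was highest of the list at E14.5 (58.9 ± 2.07 FPKM, SD, n = 3), and Shh, the hedgehog ligand, lowest at 0.00935 FPKM. The single gene called higher in the adult, named after its values were seen, was the ligand Fgf9, at 1.40 (SE 0.43, adjusted p = 0.00895; 2.0 after rescaling). Fgf9 was high at 12wk only (8.33 and 8.62 FPKM). Its 4wk samples (0.665 and 2.09 FPKM) overlapped the E14.5 samples (1.82, 1.23 and 1.29 FPKM). Edn1, the endothelin ligand upstream of Dlx5 and Dlx6 in the jaw, was the 1 gene of the list called higher at P5 than in the embryo (1.04, SE 0.39, adjusted p = 0.0639) and at E16.5 than at E14.5 (1.31, SE 0.18, adjusted p = 0.000698), and was named after its values were seen.

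By likeness of profile over the 13 samples (Pearson r of log2(FPKM + 1), given as a description, since the samples share stages and depth), the members fell into different company. Dlx1 was most like Dio3 (r = 0.994), Sox11 (0.990) and Pcdh10 (0.990), and Dlx5 most like Pcdh10 (0.995), Col8a2 (0.992) and the BMP receptor gene Bmpr1b (0.989). The nearest to Dlx2 were Zdbf2 (0.989), Maneal (0.985) and the neurofilament gene Nefm (0.982), and to Dlx6 Nrsn2 (0.982), Rspo2 (0.981) and Dlx2 itself (0.978). Barx1 lay nearest to Fam216a (0.996), H2afy (0.993) and Adprh (0.992), all of which kept several FPKM in adult samples. For Pitx1 the nearest were Epn1 (0.988), the nuclear lamina gene Lmna (0.972) and the Notch target Hes1 (0.972), each highest in an E16.5 sample. Msx1 had weaker neighbours in Mplkip (0.945), Tnfrsf18 (0.943) and Dok1 (0.942). Msx2 followed Pax1 (0.984), Hoxc5 (0.982) and Hmx1 (0.980), and each of these was highest in E14.5 replicate 1.

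Antisense transcripts at the Dlx and Msx1 loci were low. Over all 13 samples Dlx1as had 157 reads, Dlx6as1 194, Msx1as 48 and Dlx6as2 10, and none passed the filter. Of the listed ones in the files, Dlx1as was highest at E14.5, at 0.743 FPKM or less per sample, and Msx1as lowest. Dlx1as shares 335 exon bases with Dlx1 on the opposite strand (6.21% of the 5396 exon bases of Dlx1 in the GENCODE annotation). The counted length of Dlx1 was 2779 bases, and whether the counted models share these bases was not checked. The use of strand in counting is not given in the sources used here. Where counted models overlap, reads on more than 1 gene were left out by the authors.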

How the data were processed

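RNA of submandibular glands was sequenced by the authors as 50 bp single-end reads (TruSeq libraries, Illumina HiSeq), mapped to mm9 with TopHat2 2.0.13 and Bowtie2 2.2.6 and counted on UCSC genes with featureCounts, without reads on several places or genes. The authors deposited FPKM per gene and sample, made with DESeq2 1.10.1, and describe a median normalization between samples. The deposited FPKM instead behave as scaled to sample totals, since median-of-ratios factors were 1.15 to 1.38 in the embryo, 1.03 to 1.09 at P5 and 0.617 to 0.714 in the adult. Whole reads were recovered from the FPKM of 23362 of 23364 genes (tolerance 1e-06), which gave the depths and counting intervals (95%). No replicate pair agreed within sampling noise. Chi-square per gene was 5.61 between E14.5 replicates 2 and 3, and 48.2 and 39.1 between them and E14.5 replicate 1. It was 156 for the E16.5 pair and 104 for the 12wk pair.

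A gene was tested if any sample reached 1 FPKM, and values were analysed as log2(FPKM + 1) with limma 3.58.1 (R 4.3.3; variance trend), with stages or the 6 time points as groups. The design assumed FPKM, so no count test was the main result. The code was tested on simulated data. The 0-read limit is 3 reads. Permutation tests used scipy 1.17.1 and figures matplotlib 3.10.9 (Python 3.11.15, pandas 2.3.3, numpy 2.4.6). Members and gene lists were chosen with earlier results of these data known. Named genes were all members, the 3 genes most like each, and of each list that is no marker list the 3 largest called changes in adult against embryo and the highest and lowest gene at E14.5. Replicate numbers did not pair samples (mean correlation of same-numbered samples -0.016 over 30 pairs, between -0.352 and 0.273). Alternatives were a pseudocount of 0.1, other filters, rescaling, an adjusted p below 0.05, no trend, a replicate block, stages as the average of their time points, fits without the third stage, and each sample left out. After the data were seen, voom on recovered reads was added in 3 forms, as was the Barx1 to Pitx1 ratio without E14.5 replicate 1.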

Additional observations from a re-analysis of the deposited data

Results flagged for a closer look

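In 3 of the 15 groups of 4 or 7 samples examined, 1 sample was far from the others by Dixon's 95% criterion, which chance meets in about 1 of 20 groups. Msx2 in E14.5 replicate 1, at 0.600 FPKM, was far above the other 6 embryonic samples. Msx1 in 4wk replicate 1, at 0.445 FPKM from 5 reads, was above the other 3 adult samples. Pitx1 in 12wk replicate 1, at 34.5 FPKM, was above the other adult samples, which were at 32.3 to 32.6 FPKM.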

How the results depend on the processing

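Members were called lower in every setting that called them. In P5 against embryo 2 members were called, and 4 with a pseudocount of 0.1 or with voom on recovered reads (with the FPKM filter, or for all genes with at least 10 reads). Of all tested genes, 8.14% were called lower in the main fit, 10.7% with that pseudocount, and 12.0% and 10.8% in these voom fits. Only 1 was called after median-of-ratios rescaling, with time points averaged or with the replicate number as a block (replicate block: 1), and 0 to 3 with a sample left out. The share of all tested genes called lower was 3.90%, 7.65% and 6.93% in those settings, in that order. It was 4.45 to 9.86% with a sample left out. The replicate block changed no other count of calls by over 1.5 times. In adult against P5, 1 was called, against 3 with the pseudocount of 0.1, 2 with voom, 4 with voom at 10 reads, where Msx2 was tested too, and 0 with voom at rescaled depth. The shares of all tested genes called lower were 20.8%, 33.5%, 34.9%, 32.3% and 14.9%, in the same order. In adult against embryo, 5 were called and 1 after rescaling, beside 38.0% and 14.7% of all tested genes called lower. In E18.5 against E16.5, 1 was called and 4 with the pseudocount of 0.1 and with all 3 forms of voom. There 1.85% of all tested genes were called lower, 2.61% with the pseudocount and 2.81 to 5.04% with voom. In 4wk against P5, 1 was called, against 4 with the pseudocount, 2 with voom, 3 with voom at 10 reads and 0 at rescaled depth. Beside them 22.1%, 36.3%, 35.0%, 32.6% and 13.3% of all tested genes were called lower, in the same order. In P5 against E18.5, 0 were called, and 1 with the pseudocount, with voom and with voom at 10 reads. All tested genes were called lower at 2.97%, 4.40%, 5.62% and 5.66% in these fits. In 12wk against 4wk, 0 were called, and 2 with the pseudocount and 1 with each form of voom. Here the share of all tested genes called lower was 2.48%, 5.54% and 2.81 to 3.34%. Shares of all genes thus moved with the setting too. The constant added before the log sets how far low genes can move, and rescaling removes the shift of all genes; other causes were not tested. Msx1 in P5 against embryo turned from -0.086 to 0.018 after rescaling and to 0.039 with voom at rescaled depth. Depth limits the adult values of the Dlx genes and Msx2, which rest on 0 to 3 reads per library. Filters, the variance trend, an adjusted p below 0.05 and fits of only the stages compared left every count of called members within 1.5 times.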
